A study of Bos taurus with 2 samples.

Results

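mir-101 is 1 of the 283 unique known bovine miRNAs, and 1 of 884 unique miRNAs in all, that were listed in small RNA libraries of the bovine mammary gland. The entry was taken by its name in the table of known miRNAs, with every locus and arm under that name, and it gave 1 locus and 1 arm, mir-101-3p. The lactation library came from 1 multiparous Holstein dairy cow that was 6 years old and had been in milk for 2 months. The non-lactation library came from 1 multiparous Holstein dairy cow that was 4 years old, not lactating and not pregnant. Each library is named below by its stage alone. Stage, age and animal cannot be told apart, and with 1 library a stage nothing here has a replicate check. mir-101 was chosen by its reads in both libraries, which were known, so its ratio between them is a description without a test.

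miR-101 belongs to a family of vertebrate miRNAs that lower the level of target mRNAs by pairing their seed, bases 2 to 8, with sites that lie mostly in 3′ untranslated regions. In human cells it is best known for repressing EZH2, the enzyme of Polycomb repressive complex 2 that methylates histone H3, and MCL1, an inhibitor of cell death. In the mouse uterus and in mouse mammary epithelial cells it represses PTGS2 (cyclooxygenase-2), which makes the precursor of prostaglandins.

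The sequences of both arms and of the listed pre-miRNA are shown because the seed, the pairing of the arms and the split of reads between them rest on these letters. Capitals mark the seed (bases 2 to 8) in the arms, and the parts that became the arms in the pre-miRNA.
mir-101-3p: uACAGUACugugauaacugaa
CN-422-5p: uCAGUUAUcacagugcugaugc
mir-101 pre-miRNA: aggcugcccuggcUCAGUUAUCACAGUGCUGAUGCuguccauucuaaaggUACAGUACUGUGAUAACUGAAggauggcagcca
The pre-miRNA of 83 nt was assigned to the plus strand of chromosome 3 from 86285809 to 86285891 in the genome build BTA 4.0. In the RefSeq annotation of a later assembly, ARS-UCD2.0, MIR101-1 on chromosome 3 also had a length of 83 and lay inside LOC132344975, a long non-coding RNA. RefSeq names a further copy, MIR101-2, on chromosome 8 inside the protein-coding gene RCL1, with a pre-miRNA of 79 nt. There the plain name bta-mir-101 is a synonym of MIR101-2, while MIR101-1 has the synonym bta-mir-101-1. The deposited table placed mir-101 at the chromosome 3 locus alone. Reads of mir-101-3p may therefore hold molecules of a second copy, if its mature sequence is the same, which was not checked here.

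The 3p arm of 21 nt took positions 51 to 71 of the pre-miRNA. The 5p arm of 22 nt, listed among the genome-predicted candidates (prefix CN) as CN-422-5p, took positions 14 to 35, with 15 bases between the arms. In the minimum free energy structure predicted by RNAfold, 20 of the 21 bases of mir-101-3p were paired with bases of the 5p arm, and all 7 bases of the seed were among them. Base 21, the last, had no partner. At both ends of this duplex the 3′ end of an arm reached 1 base past the partner of the first base of the other arm. The predicted energy was -47 kcal/mol with 29 base pairs. Among 110 pre-miRNAs of known miRNAs for which a CN entry gave the hairpin sequence, the median was -37.6 kcal/mol and 17 had a lower energy. Per nucleotide, mir-101 had -0.566 kcal/mol against a median of -0.442, and 8 of the 110 were lower.

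**Figure D1:**
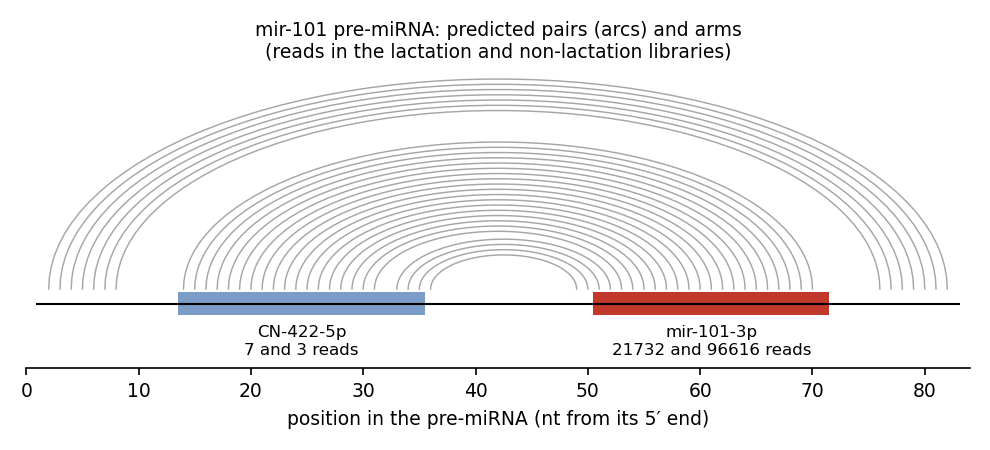
Map of the mir-101 pre-miRNA, with position in nt from its 5′ end on the horizontal axis; grey arcs join the bases predicted to pair, and boxes mark the arms with their reads in the lactation and the non-lactation library. CN-422-5p (blue, 7 and 3 reads) and mir-101-3p (red, 21732 and 96616 reads) face each other over 20 predicted pairs.

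mir-101-3p was lower in lactation. Its most abundant sequence, shown above, had 21732 reads in lactation and 96616 reads in non-lactation. Scaled to the clean reads of each library (RPM, reads per 1000000 clean reads), it had 1816 RPM in lactation and 6051 RPM in non-lactation. The ratio of lactation RPM to non-lactation RPM was 0.300, with an exact 95% interval of 0.296 to 0.305 (Clopper-Pearson, conditional on the summed reads), which is 3.33-fold lower and a log2 ratio of -1.74. Intervals here cover counting error alone and treat each read as independent. PCR copies of one molecule are not independent, so the intervals may be too narrow even for that. They say nothing of the spread between cows. In bulk tissue, fewer cells that hold a miRNA and less of it per cell cannot be told apart.

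**Figure D2:**
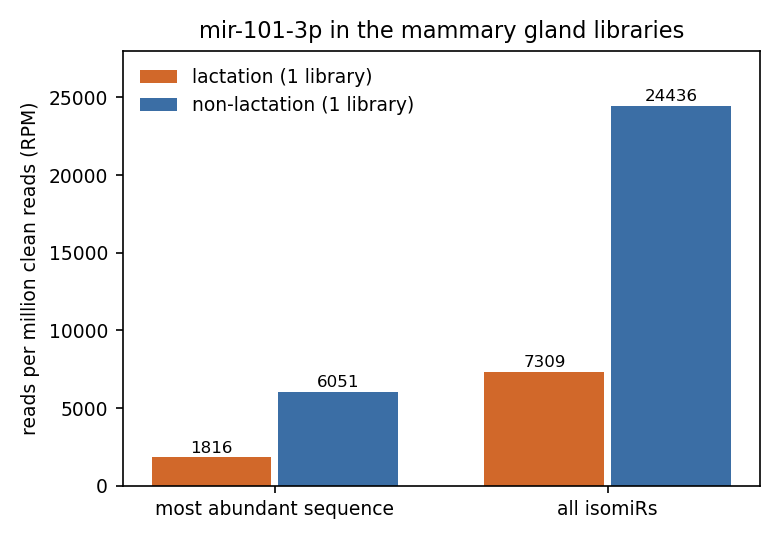
Level of mir-101-3p in RPM (vertical axis, from 0) in the lactation (orange) and non-lactation (blue) libraries, 1 library each, for the most abundant sequence and for all isomiRs. The most abundant sequence had 1816 and 6051 RPM and all isomiRs 7309 and 24436 RPM, so the lactation bar is the lower one by both counts.

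The same difference was found when the variants of the sequence were counted. All isomiRs of mir-101-3p, its length and sequence variants together, had 87450 reads (7309 RPM) in lactation and 390201 reads (24436 RPM) in non-lactation, a ratio of 0.299 (0.297 to 0.301). The isomiRs other than the most abundant sequence, which share no read with it, had 65718 reads in lactation and 293585 in non-lactation. Their ratio was 0.299 (0.296 to 0.301), or 3.35-fold lower (3.32 to 3.38). The most abundant sequence and its variants thus had ratios whose intervals overlap, within the same pair of libraries.

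mir-101-3p was among the better represented miRNAs of both libraries. It ranked 29th of 283 known miRNAs in lactation and 14th in non-lactation by the most abundant sequence, and 20th and 9th by all isomiRs. The 14th place counts mir-107-3p, which stood above it at 115244 reads in non-lactation but was listed at 0 in lactation, and which has the same listed sequence as mir-103-3p. Of all clean reads, isomiRs of mir-101-3p made up 0.731% in lactation and 2.44% in non-lactation. As a share of the isomiR reads of all known miRNAs, this was 0.870% in lactation and 2.71% in non-lactation. In rank by the most abundant sequence it stood between mir-125b-5p (22205 reads) and mir-140-3p (20944 reads) in lactation. In the non-lactation library it stood between mir-25-3p (107961 reads) and let-7i-5p (91345 reads). mir-125b-5p is a miRNA of stem and progenitor cells, mir-140-3p one of cartilage, mir-25-3p comes from a paralog of the mir-17/92 cluster, and let-7i-5p is one of the let-7 family of differentiated tissues. Among the 177 miRNAs whose most abundant sequence is 21 nt long, like that of mir-101-3p, 2 had more reads in each library. In non-lactation these 2 were mir-103-3p and mir-107-3p, which have the same listed sequence. mir-101-3p held 7.61% (7.51% to 7.71%) of the summed reads of these 177 most abundant sequences in lactation and 21.5% (21.4% to 21.7%) in non-lactation. These sums are not alike, since mir-107-3p adds 115244 reads in non-lactation and 0 in lactation. Isomers of 21 nt from other miRNAs are not in these sums.

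Differences of 2-fold or more were not rare between these libraries, while ratios as low as that of mir-101-3p were fewer. Over the 273 miRNAs with 100 or more summed reads, 62 (22.7%) were lower in lactation by 2-fold or more, and 79 (28.9%) were higher by 2-fold or more. This balance turned under other scalings, with 71 lower and 59 higher by TMM factors, 73 and 58 by DESeq2 size factors, and 83 and 50 unscaled. By clean reads, 29 of the 273 were lower by 3-fold or more, and a log2 ratio below that of mir-101-3p was found for 25 (9.16%). The median log2 ratio of the 273 was 0.24, and mir-101-3p lay 1.97 below it (a difference of -1.97 on the log2 scale). That distance is the same for every scaling of the most abundant sequences, since a scaling shifts all ratios alike. The fold itself ranged over the scalings tried, from 3.09-fold lower with the sum of listed isomiR reads to 4.45-fold lower with unscaled reads. Among the 105 known miRNAs with at least 1000 summed reads the median log2 ratio was 0.09, and 8 lay below mir-101-3p. mir-107-3p, listed at 0 in lactation and with the same listed sequence as mir-103-3p, is among these 8 and among the 25.

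**Figure D3:**
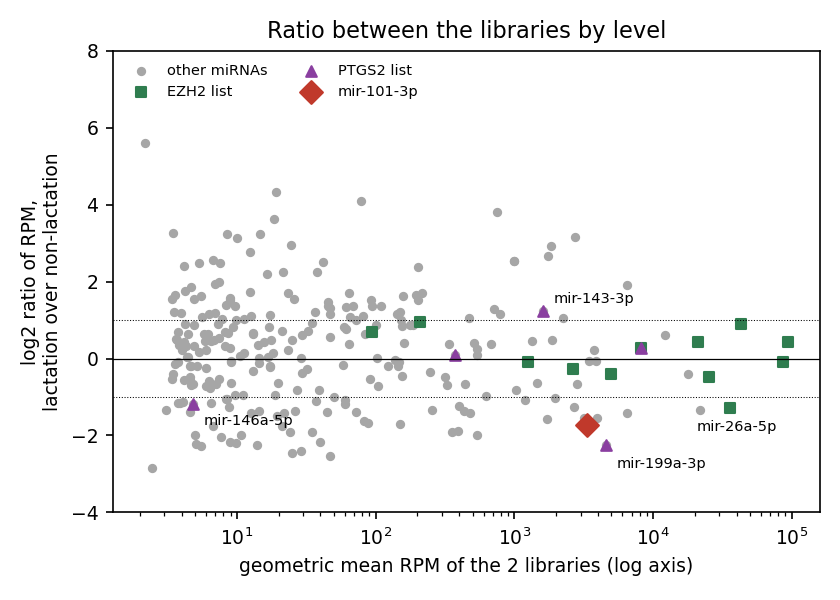
The log2 of lactation RPM over non-lactation RPM (vertical axis) against the geometric mean RPM of the libraries (log axis) for the 265 miRNAs with at least 100 summed reads and reads in both libraries, 1 point each; dotted lines mark a 2-fold difference. mir-101-3p (red) lies at -1.74, above mir-199a-3p (-2.25) and below mir-26a-5p (-1.28).

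The 5 known miRNAs with the log2 ratio nearest to that of mir-101-3p, among those with at least 1000 summed reads, were mir-10a-5p (-1.67), mir-100-5p (-1.62), mir-342-3p (-1.88), mir-99a-5p (-1.58) and mir-205-5p (-1.91). This likeness is over 1 ratio from 2 libraries, and it is a description. mir-10a-5p, a miRNA of the Hox gene clusters, had 594 reads in lactation and 2521 in non-lactation. mir-100-5p and mir-99a-5p, near-identical members of one family, had 562 and 11966 reads in lactation, against 2302 and 47580 in non-lactation. mir-342-3p, which in human lies within an intron of EVL, had 2462 reads in lactation and 12063 in non-lactation. mir-205-5p, a miRNA of basal cells of stratified and mammary epithelium, had 2207 reads in lactation and 11063 in non-lactation. By level, mir-101-3p exceeded each of these 5 in both libraries.

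No other entry of the 884 had the seed of mir-101-3p. The 7 letters ACAGUAC at bases 2 to 8 of the most abundant sequence were found in mir-101-3p alone. The 6 letters ACAGUA at bases 2 to 7 were found in 1 further miRNA, mir-144-3p, a miRNA of red blood cells. Its sequence is shown with those of the other entries named below, since the place of the shared letters differs between them. Capitals mark ACAGUA in mir-144-3p and mir-199a-3p, and the longest run shared with mir-101-3p in CN-386-3p.
mir-144-3p: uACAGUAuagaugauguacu
mir-199a-3p: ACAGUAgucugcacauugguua
CN-386-3p: gUACAGUACUGUGAacuga
mir-144-3p had 3 reads in lactation and 0 in non-lactation, and the other arm of its hairpin, CN-142-5p, had 4 reads in lactation and 0 in non-lactation. No fold is given at these counts, 3 reads being the lowest value above 0 listed for a minor arm in either library. Between mir-101-3p and mir-144-3p, almost all reads with ACAGUA at bases 2 to 7 were those of mir-101-3p in both libraries.

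The same 6 letters stood 1 base earlier, at bases 1 to 6, in 3 miRNAs, mir-199a-3p, mir-199c-3p and PC-199b-3p (prefix PC, conserved in other mammals). They were chosen after their values were seen. mir-199a-3p, a miRNA of mesenchyme, had 25123 reads (2099.7 RPM) in lactation and 159166 reads (9968 RPM) in non-lactation, a log2 ratio of -2.25. mir-199c-3p had 138 reads in lactation and 520 in non-lactation (-1.50). By all isomiRs mir-199c-3p had 667 reads in lactation and 1745 in non-lactation, a log2 ratio of -0.97. PC-199b-3p had 9 reads in lactation and 24 in non-lactation, and the interval of its ratio, 0.205 to 1.12, includes 1. By all isomiRs it had 20 reads in lactation and 85 in non-lactation, with a ratio of 0.314 (0.183 to 0.516). mir-199a-3p was thus above mir-101-3p in level in both libraries and had the lower ratio.

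A run of 10 or more bases of mir-101-3p was found in 2 further entries. CN-386-3p, assigned to the plus strand of chromosome 4 from 71960424 to 71960513 (BTA 4.0), had 0 reads in lactation and 4 in non-lactation. Its 19 nt hold bases 1 to 13 of mir-101-3p as 1 run, followed by 5 bases that equal bases 16 to 20, so that 2 bases of mir-101-3p are left out. It differs from the hairpin listed for it at 1 position, U9C, with the base of the hairpin first and positions counted from the 5′ end of the read. CN-49-3p, which shares 11 bases and lies on the same hairpin as mir-542-5p, had 84 reads in lactation and 216 in non-lactation, a ratio of 0.519 (0.398 to 0.671). By reads both are small beside mir-101-3p.

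The most abundant sequence held a small and nearly equal share of the mir-101-3p reads in both libraries. It was 24.9% (exact interval 24.6% to 25.1%) of the isomiR reads in lactation and 24.8% (24.6% to 24.9%) in non-lactation. For each read of this sequence there were 3.02 reads of other isomiRs in lactation and 3.04 in non-lactation. Among 176 known miRNAs with at least 100 isomiR reads in each library, the median share was 45.0% in lactation and 45.2% in non-lactation. A share below that of mir-101-3p was found for 16 in lactation and 18 in non-lactation. With 10000 or more isomiR reads in each library, 3 of 45 were lower in each.

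The shares of the most abundant sequence differed by 0.0902 percentage points between the libraries for mir-101-3p. Over the 176 known miRNAs the median of this difference, regardless of sign, was 5.33 points, and 2 had a smaller one. The 5 lowest shares over both libraries, among miRNAs with at least 10000 isomiR reads in each, were those of mir-140-3p, mir-181a-5p, mir-101-3p, mir-30a-5p and mir-23b-3p. mir-140-3p held 16.7% in lactation and 18.2% in non-lactation. mir-181a-5p, a miRNA of lymphocyte development, held 23.1% in lactation and 23.9% in non-lactation. mir-30a-5p, of the mir-30 family, held 29.0% in lactation and 27.7% in non-lactation. mir-23b-3p, from a cluster with mir-27b and mir-24, held 22.8% in lactation and 34.3% in non-lactation, so a low share did not go with an equal share in each of these miRNAs.

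**Figure D4:**
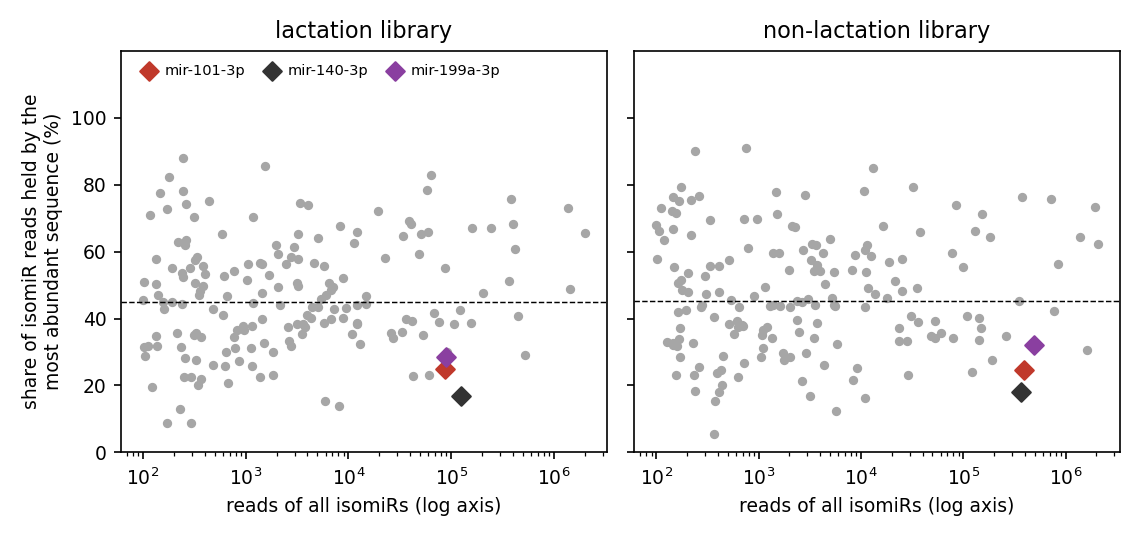
Share of isomiR reads held by the most abundant sequence (vertical axis, percent) against the isomiR reads (log axis) for 176 known miRNAs in the lactation (left) and non-lactation (right) libraries; the dashed line is the median. mir-101-3p (red) lies at 24.9% and 24.8%, between mir-140-3p (16.7% and 18.2%) and mir-199a-3p (28.4% and 32.1%), and under the medians of 45.0% and 45.2%.

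The isomiRs of mir-101-3p were of 265 kinds in lactation and 324 kinds in non-lactation, a kind being a distinct sequence. More kinds were listed for 11 known miRNAs in lactation and for 7 in non-lactation. mir-26a-5p is not among them, with 28 and 38 kinds listed for 403436 and 1394797 isomiR reads. The same numbers of kinds were listed for PC-26-1-5p, so the counts of 11 and 7 may be too low. More reads can give more kinds, so their number was set beside known miRNAs with isomiR reads within 2-fold of those of mir-101-3p in the same library. In the lactation library 17 such miRNAs had 120 to 356 kinds (median 218), and 14 of them had fewer than mir-101-3p. In the non-lactation library 7 had 173 to 407 kinds (median 281), and 4 had fewer. The isomiRs other than the most abundant sequence averaged 249 reads a kind in lactation and 909 in non-lactation. Which isomiRs these were, and whether they differ at the 5′ end and so in the seed, was not analysed here.

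Nearly all reads listed for the mir-101 hairpin came from the 3p arm. The arms were paired at the chromosome 3 locus, while reads of mir-101-3p may hold molecules of the chromosome 8 copy. If they do, the shares below are not the split of the chromosome 3 hairpin alone. CN-422-5p had 7 reads in lactation and 3 in non-lactation. Its share of the reads of both arms was 0.0322% (exact interval 0.0129% to 0.0663%) in lactation and 0.00310% (0.000640% to 0.00907%) in non-lactation. This is 1 read of the 5p arm to 3105 of the 3p arm in lactation, and 1 to 32205 in non-lactation. These intervals of the shares did not overlap, while the arm itself had a ratio of RPM of 3.11 with an interval of 0.711 to 18.7, which includes 1. By all isomiRs the 5p arm had 10 reads and a share of 0.0114% in lactation, against 3 reads and 0.000769% in non-lactation, and its ratio of RPM was then 4.45 with an interval of 1.15 to 25.2, which lies above 1. The 3 reads of the non-lactation library equal the lowest value above 0 listed for a minor arm in either library, and 16 minor arms in lactation and 17 in non-lactation were listed at 0.

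The minor arm of most other hairpins took a larger share. Of 142 hairpins with both arms listed and reads in lactation, 116 had a higher share on the arm with fewer reads and 25 a lower one, with a median of 2.13%. In the non-lactation library 123 of 140 were higher and 16 lower, with a median of 2.53%. A hairpin with few reads cannot show a share above 0 that is as small as that of mir-101, so hairpins with at least 10000 summed reads were also taken, a limit chosen after seeing the data. Of these 40 hairpins, 12 had a lower share in lactation and 2, those of let-7f and let-7g, in non-lactation, with medians of 0.147% and 0.105%. This limit does not settle the matter for non-lactation, where the 3 reads of CN-422-5p equal the lowest value above 0 listed for a minor arm. A hairpin with fewer reads there than that of mir-101 could not show a lower share above 0. The 40 hairpins also differed in depth, from 10440 summed reads (mir-16a) to 2580912 (let-7a). The counts of 12 and 2 thus depend on depth, and the position of mir-101 is not compared between the libraries.

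**Figure D5:**
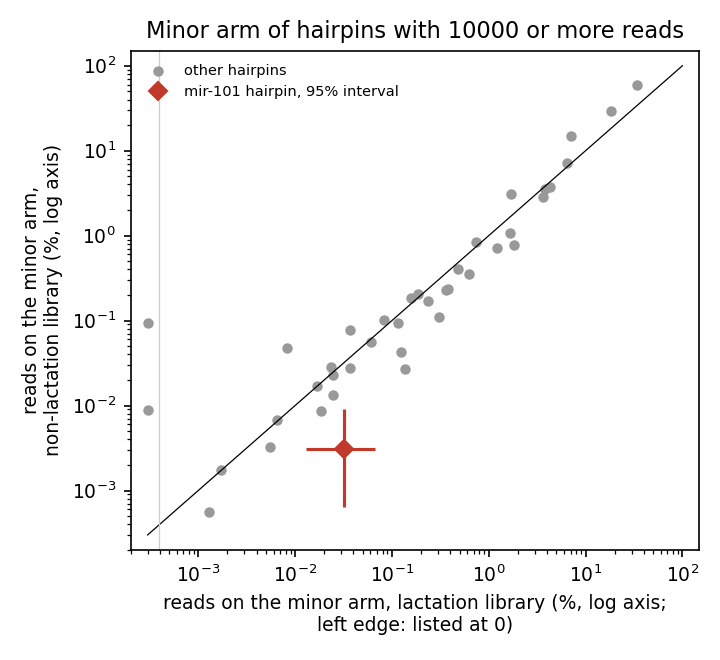
Share of reads on the minor arm in lactation (horizontal, log axis) and in non-lactation (vertical, log axis) for 40 hairpins with at least 10000 summed reads; the line marks equal shares, and 2 hairpins listed at 0 in lactation stand at the left edge. The mir-101 hairpin (red, with exact 95% intervals) lies below the line at 0.0322% and 0.00310%.

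mir-101 was not part of a listed cluster. The nearest other pre-miRNA on chromosome 3 was that of mir-186-5p, at a distance of 6.62 Mb, where miRNAs within 10 kb are usually taken as clustered. No listed neighbour could therefore be compared with mir-101-3p for a shared transcript.

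Other miRNAs known to repress the same targets were counted against the shares over all 273 miRNAs, 22.7% lower and 28.9% higher by 2-fold or more. Of 14 listed miRNAs known to repress EZH2 in human cells, 12 had at least 100 summed reads. 1 of these was lower in lactation by 2-fold or more and 0 were higher by as much, with a median log2 ratio of 0.10 against 0.24 over all 273. The lower one was mir-26a-5p, with 23021 RPM in lactation and 56095 RPM in non-lactation (log2 ratio -1.28). Its relative mir-26b-5p had 9027 RPM in lactation and 7421 RPM in non-lactation (0.28). The list holds the let-7 family, whose members differ by few bases, so reads may be shared between them. Members of the let-7 family ranged from let-7c-5p with a log2 ratio of -0.49 up to mir-98-5p with 0.96.

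Of 5 listed miRNAs known to repress PTGS2 in human or mouse cells, all 5 had at least 100 summed reads. 2 were lower in lactation by 2-fold or more, mir-199a-3p (-2.25) and mir-146a-5p (-1.19), and 1 was higher, mir-143-3p (1.23), with a median of 0.09. Over all 273 miRNAs 22.7% were lower and 28.9% higher, so nothing particular to the list is read from 2 and 1 of 5. mir-146a-5p, a miRNA of the innate immune response, had 38 reads in lactation and 116 in non-lactation. mir-143-3p, a miRNA of smooth muscle and fibroblasts, had 29561 reads in lactation and 16770 in non-lactation. mir-199a-3p, which in the mouse uterus represses PTGS2 together with miR-101, was the one in this list with a lower ratio than mir-101-3p. The mRNAs of EZH2 and PTGS2 were not analysed here.

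miRNAs that mark cell types also differed between the libraries, and their part in the ratio of mir-101-3p was not tested. Markers with 100 or more summed reads were counted. The 5 markers of epithelium were all higher in lactation by 2-fold or more, with a summed level of 12201 RPM against 1903 RPM in non-lactation, so epithelial markers, as the label of mammary gland implies, were detected in both. Of 5 counted markers of stroma and smooth muscle, 3 were lower and 1 higher, with a summed level over the 6 listed of 8640 RPM in lactation and 14558 RPM in non-lactation. The 2 counted markers of striated muscle were higher (4480 RPM in lactation against 696 RPM in non-lactation over the 4 listed), as were the 2 of endothelium (487 RPM against 165 RPM). These 2 markers of endothelium are the arms of 1 hairpin, that of mir-126. Of the markers of white blood cells, 1 of 4 counted was lower (70.6 RPM against 128 RPM over the 5 listed). Both counted markers of red blood cells were higher (90.8 RPM against 32.5 RPM over the 3 listed), with mir-144-3p at 0 in non-lactation. The epithelial markers are the mir-200 family alone, and mir-205-5p, of basal epithelial cells, was lower in lactation (-1.91). The 3 lower markers of stroma are all arms of mir-199, while mir-143-3p (1.23) was higher and mir-145-5p had a log2 ratio of 0.23. Over all 273 miRNAs 22.7% were lower and 28.9% higher by 2-fold or more.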

How the data were processed

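The deposited tables give, per miRNA and library, counts of reads for its most abundant sequence and for its isomiRs as a whole, and the number of isomiR kinds. To make them the authors discarded other RNA classes, adaptor and poor-quality sequence and aligned clean reads to miRBase 17.0 and to the bovine genome BTA 4.0 with ACGT101-miR. In the table of CN candidates the isomiR reads and kinds stand under each other's headings and were read by their values.

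RPM are counts per 1000000 clean reads as the study gives them, and the non-lactation library had 1.33 times as many as the lactation library. The listed most abundant sequences held 5745961 reads in lactation (48.0% of clean reads) and 7879028 in non-lactation (49.3%), and listed isomiRs 10259829 (85.7%) and 14747740 (92.4%). Intervals of ratios and shares are exact (Clopper-Pearson, 95%). A listed 0 was set to 3 reads in counts of miRNAs past 2-fold. Counts were simulated for 883 miRNAs of these libraries as independent (Poisson) draws, the setting that the interval assumes. Where both counts were above 0, 97.4% of 782 intervals held the simulated ratio. This checks the calculation alone, since the draws held no PCR copies and no spread between cows. Arms were paired by identical pre-miRNA coordinates. The pre-miRNAs were folded with RNAfold of ViennaRNA 2.7.2. Scaling factors, and nothing else, came from DESeq2 1.42.0 and edgeR 4.0.16 under R 4.3.3. The rest ran in Python 3.11.15 with scipy 1.17.1, numpy 2.4.6, matplotlib 3.10.9 and pandas 2.3.3.

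The miRNA and all lists were chosen with earlier results of these data known. Named miRNAs are the arms of the mir-101 and mir-144 hairpins, entries that share the seed or at least 10 bases, list members and markers, the 5 nearest by log2 ratio, the 3 next in RPM on each side, and the 5 lowest shares of the most abundant sequence. Alternatives were other scalings, all isomiR reads, and other folds, read minimums and matches. Sample labels name Trizol for RNA extraction and a TruSeq small RNA kit, and the methods of the study name a Qiagen miRNeasy kit.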

Additional observations from a re-analysis of the deposited data

How the results depend on the processing

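mir-101-3p was lower in lactation under every scaling tried. Its ratio of RPM was 0.308 scaled to the sum of listed most abundant sequences, 0.323 to the sum of listed isomiR reads, 0.2503 with TMM factors, 0.247 with DESeq2 size factors, 0.280 with raw reads as totals and 0.225 unscaled. Each of these lies outside the interval of the main ratio, 0.296 to 0.305. The ratio by all isomiR reads, 0.299, lies within it. The split of all miRNAs turned with TMM, DESeq2 and unscaled reads, by which 49.8%, 49.5% and 45.4% were higher in lactation, against 56.0% with clean reads. The median log2 ratio of all miRNAs moved by -0.26 with TMM, -0.28 with DESeq2, -0.42 unscaled, 0.11 with isomiR totals and -0.10 with raw reads. Of all miRNAs, 29 and 16 were at least 3-fold and 4-fold lower, and 102, 33 and 104 at least 2-fold lower with a minimum of 10 summed reads, of 1000 and with none. Of the EZH2 list, 2 and 3 members differed by 2-fold when scaled to listed sequences and to listed isomiRs. Over all 273 miRNAs 61 were lower and 82 higher by 2-fold with the first scaling, and 56 and 86 with the second. Besides mir-26a-5p these members were higher in lactation, mir-98-5p (log2 ratio 0.96 with clean reads) in both and let-7b-5p (0.90) in the second. By 1.5-fold 4 members differed, and 83 of the 273 miRNAs were lower, with no count made of those higher. By 3-fold or 4-fold 0 members differed. Of the PTGS2 list, mir-199a-3p alone (log2 ratio -2.25) differed by 3-fold and also by 4-fold. At these folds 29 and 16 of the 273 miRNAs were lower, with no count made of those higher. The share of the most abundant sequence was lower in 6.06% of miRNAs with at least 1000 isomiR reads in non-lactation, against 10.2% with 100. By all isomiRs the 5p arm held 0.0114% in lactation. The seed at bases 2 to 7 was held by 2 entries. The 5 nearest ratios were those of the same 5 miRNAs with a minimum of 100 reads. In all, 45 of 68 recomputed values stayed within counting error or within 1.5 times of the reported count, and the direction of mir-101-3p held in all of its own. The cause was not tested. No paired analysis was possible because each condition has 1 library. With 1 library each, depth limits the counting error alone, and the 5p arm, with 7 and 3 reads, is where it limits a value most.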
